A study of Mus musculus with 18 samples.

Results

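The 36 genes described here are interferon-response and antigen-presentation genes, listed by name and looked up in the filtered expression tables of mouse embryonic fibroblasts (MEFs) before and during reprogramming. Of the 36 genes, 32 were listed in the knockdown table of 9435 genes and 23 in the overexpression table of 9472 genes, out of 9866 genes listed in at least 1 table. All 23 were also among the 32. *Dhx58*, *Usp18*, *Psmb8* and *Psmb9* were in neither table, and *Irf7*, *Isg15*, *Ifit1*, *Ifit3*, *Oasl2*, *Parp14*, *Gbp2*, *Gbp3* and *Gbp7* were in the knockdown table alone, so all 13 are described by their exon junction reads instead, where an exon event existed. The comparisons ask whether viral vectors, shRNAs or reprogramming changed the level or the splicing of these genes.

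The 18 RNA-seq libraries formed 9 groups of 2, and all cells were primary MEFs of genotype Collagen-OKSM, M2rtta+, which carry a cassette of OCT4, SOX2, KLF4 and MYC that doxycycline switches on. In the knockdown dataset, non-infected MEFs at day 0 (NI) were set beside cells at day 12 of reprogramming that had received lentiviral vectors with GFP and a scrambled shRNA (shSCR), either of 2 shRNAs against the cleavage and polyadenylation factor *Cpsf3* (shCPSF3#1 and shCPSF3#2) or either of 2 shRNAs against the RNA-binding protein gene *Hnrnpul1* (shUL1#1 and shUL1#2). In the overexpression dataset, NI cells were set beside day 12 cells with an Empty retroviral vector with GFP or the same vector carrying T7-tagged *Tia1* (T7-TIA1). No group was infected without reprogramming or reprogrammed without infection. Day 12 cells thus differed from NI cells in the vector, doxycycline and the reprogramming factors, culture medium, sorting for GFP and the irradiated feeder MEFs under them, and the parts of these cannot be told apart.

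Cells sense viral RNA through cytoplasmic helicases, which switch on type I interferon. Secreted interferon acts through receptor-bound Janus kinases on STAT2 and IRF9, which act at the interferon-stimulated response element (ISRE) of antiviral genes, whereas interferon-γ acts at the GAS element. Interferon also raises the machinery that cuts proteins into peptides, carries these into the endoplasmic reticulum and loads them on MHC class I molecules. Pluripotent cells are known for a weak interferon response, while fibroblasts respond strongly.

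Read counts of genes were not used here. From the smallest step between the values of a library, each library was estimated to hold 98882289 to 109047542 reads on the listed genes. The targeted genes moved with their labels. *Cpsf3* was at 86.7 and 118 scaled CPM (CPM, read counts relative to a library size that the authors scaled) in the shSCR libraries and at 38.6 to 77.1 in the 4 *Cpsf3* knockdown libraries, *Hnrnpul1* was at 156 and 185 in shSCR and at 38.7 to 85.8 in the 4 *Hnrnpul1* knockdown libraries, and *Tia1* was at 85.6 and 77.0 in Empty and at 613 and 469 in T7-TIA1. The summed level of 11 fibroblast markers was 15262 to 18434 in NI, 6731 to 7906 in shSCR and 14379 to 32821 in the knockdown libraries. None of 10 pluripotency markers was in either table. Listed genes reached 5 scaled CPM in at least 9 of 12 knockdown or all 6 overexpression libraries, the latter including NI. A gene silent in NI cells could thus not enter the overexpression table, and absence does not show that these markers were off at day 12. In bulk RNA, fewer cells of a type and less RNA per cell cannot be told apart.

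The shRNA targets are shown because the knockdown comparisons rest on them. Each of the 4 sequences of 21 bases was found in transcripts of its own target gene and in no transcript of another gene, members of the list included. #1 and #2 against *Cpsf3* lie in exons 10 and 14, and both against *Hnrnpul1* in exon 10.
CPSF3 shRNA#1: ccagcaaaccagtgaatttat
CPSF3 shRNA#2: cctgctctgaaggtgttcaaa
hnRNPUL1 shRNA#1: cccgaaagaagcgaaactata
hnRNPUL1 shRNA#2: tcagtgcctcaaccgtcttat

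Promoters of 31 of the 36 members were found in RefSeq (GRCm38.p6, from 250 bases before to 50 after the start of transcription), and not those of *Dhx58*, *Ifi27*, *Usp18*, *Parp9* and *Parp14*. The ISRE was searched on both strands as GAAA, a pair of any bases and GAAA again, and the GAS element as TTCNNNGAA, which reads the same on both strands. Letters of an ISRE were present for 12 of the 31 members (38.7%) against 3.99% of 27025 genes, and of a GAS element for 9 (29.0%) against 9.55% of genes. Below are the promoters of *Ifit3*, the member with the largest fold change called in both knockdowns, *Bst2*, the member with the largest fold change called in both day 12 to day 0 comparisons, *B2m*, which passed the test upwards in one comparison and downwards in another, and *Tap1*, called in 4 comparisons. Capitals mark ISRE letters on either strand and, in *Bst2*, also a GAS element that overlaps the first ISRE.
*Ifit3*, chr19:34583279-34583578, plus strand: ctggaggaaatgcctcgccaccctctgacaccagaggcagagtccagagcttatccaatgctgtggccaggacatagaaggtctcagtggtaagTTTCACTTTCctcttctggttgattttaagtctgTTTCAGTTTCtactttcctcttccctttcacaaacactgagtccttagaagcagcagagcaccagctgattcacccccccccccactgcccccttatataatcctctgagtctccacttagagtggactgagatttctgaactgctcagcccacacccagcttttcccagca
*Bst2*, chr8:71537423-71537722, minus strand: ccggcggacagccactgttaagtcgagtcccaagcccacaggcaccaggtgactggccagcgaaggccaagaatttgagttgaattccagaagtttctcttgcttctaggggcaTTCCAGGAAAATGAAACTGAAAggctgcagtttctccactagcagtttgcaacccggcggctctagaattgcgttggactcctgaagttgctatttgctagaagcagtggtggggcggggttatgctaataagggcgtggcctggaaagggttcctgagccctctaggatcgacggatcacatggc
*B2m*, chr2:122147437-122147736, plus strand: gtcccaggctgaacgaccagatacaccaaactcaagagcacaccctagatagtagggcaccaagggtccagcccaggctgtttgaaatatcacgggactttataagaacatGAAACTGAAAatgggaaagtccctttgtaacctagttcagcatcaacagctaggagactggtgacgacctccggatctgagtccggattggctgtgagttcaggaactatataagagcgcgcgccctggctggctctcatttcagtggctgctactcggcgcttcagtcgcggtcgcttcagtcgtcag
*Tap1*, chr17:34187306-34187605, plus strand: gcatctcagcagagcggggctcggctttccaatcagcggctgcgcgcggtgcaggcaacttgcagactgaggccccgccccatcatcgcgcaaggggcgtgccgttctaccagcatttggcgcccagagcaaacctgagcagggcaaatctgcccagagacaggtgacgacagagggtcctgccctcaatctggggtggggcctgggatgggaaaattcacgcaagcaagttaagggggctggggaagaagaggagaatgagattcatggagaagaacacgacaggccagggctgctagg
*Ifit3* held 2 ISRE matches, *Bst2* 2 overlapping ones and *B2m* 1, and *Tap1* held neither motif in this window. A match describes letters only and does not show that a factor was bound.

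Several members are neighbours in the genome (mm10, GENCODE vM21). *Ifit2*, *Ifit3* and *Ifit1* lie on chr19:34550694-34650009, all on the plus strand, and *Gbp7*, *Gbp3* and *Gbp2* on chr3:142530342-142638008, also on the plus strand. *Tapbp*, *H2-K1*, *Psmb9*, *Tap1*, *Psmb8* and *H2-D1* lie in the MHC region, on chr17:33915899-35267499. The start of *Tap1* overlaps that of *Psmb9* on the opposite strand, and the start of *Parp9* that of *Dtx3l*. Libraries were stranded, but whether the counting per gene used the strand is not given in the sources used here, so reads in these overlaps may be split.

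In the knockdown dataset, 6 of 32 members passed the test between shSCR at day 12 and NI at day 0 (limma with Benjamini-Hochberg adjustment over all genes, adjusted p under 0.05), 5 of them higher and 1 lower in shSCR, against 44.5% of all genes. The share of members called was thus below the background. The median log2 fold change was 0.85 over the members and 0.0005 over all genes. Higher in both shSCR libraries than in both NI libraries were 13 members (38.7% of all genes), and lower were 3, namely *Ifit2*, *Samhd1* and *Psmb10* (38.4% of all genes).

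*Bst2*, which encodes tetherin, a protein that holds budding virus on the cell surface, was at 22.3 and 32.7 scaled CPM in NI and at 171 and 119 in shSCR. Both shSCR libraries stood far above both NI libraries, and the log2 fold change was 2.35 ± 0.469 (SE, adjusted p = 0.00471). *Trim25*, a ubiquitin ligase that activates the RNA sensor encoded by *Ddx58*, was at 66.7 and 90.7 in NI and at 217 and 185 in shSCR. It rose by 1.35 ± 0.229 on the log2 scale (adjusted p = 0.00223). *Stat2*, the STAT partner of IRF9, was at 18.0 and 28.3 in NI and at 84.3 and 54.4 in shSCR, again without overlap, with a log2 fold change of 1.54 ± 0.414 (adjusted p = 0.0174).

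Among the antigen-presentation members, *Tap1* and *Tapbp* passed the test. *Tap1*, a subunit of the peptide transporter of the endoplasmic reticulum, was at 9.01 and 12.0 in NI and at 29.6 and 19.0 in shSCR (log2 fold change 1.12 ± 0.252, adjusted p = 0.00827). *Tapbp*, which encodes tapasin, the bridge between that transporter and MHC class I, was at 27.6 and 37.5 in NI and at 129 and 58.5 in shSCR (1.41 ± 0.482, adjusted p = 0.0449). In each of the pair, the 2 shSCR libraries lay above both NI libraries, with replicate 1 the higher. *H2-K1*, an MHC class I heavy chain, also did not overlap, with 27.9 and 23.7 in NI and 156 and 55.4 in shSCR, but missed the threshold (1.82, adjusted p = 0.0858). *Irf1*, a transcription factor, did not overlap either, with 10.5 and 15.2 in NI and 38.8 and 34.0 in shSCR (1.45, adjusted p = 0.0760).

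*Ifit2*, a binder of viral RNA, was the only member called lower. It was at 25.3 and 21.1 in NI and at 10.4 and 9.05 in shSCR (log2 fold change -1.17 ± 0.343, adjusted p = 0.0246). *Samhd1*, a dNTP hydrolase that restricts viral replication, was at 188 and 186 in NI and at 126 and 94.4 in shSCR, without overlap and without a call. The related effectors *Ifit1* (12.5 and 23.6 in NI, 22.02 and 5.36 in shSCR) and *Ifit3* (4.70 and 11.7 in NI, 6.96 and 3.79 in shSCR) overlapped between the groups, as did *Oasl2*, an OAS-like gene (3.51 and 10.1 in NI, 39.02 and 9.80 in shSCR, log2 fold change 1.56, adjusted p = 0.196). Of the sensors, *Ddx58* (RIG-I) was at 36.8 and 58.1 in NI and at 83.2 and 61.9 in shSCR (0.62, adjusted p = 0.191). *Ifih1* (MDA5) was at 10.7 and 17.2 in NI and at 16.2 and 5.66 in shSCR, so that a single shSCR library lay below both NI libraries.

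The 2 same-numbered contrasts gave different pictures. In replicate 1, 29 of 32 members were higher in shSCR than in NI, with a median log2 difference of 1.59, and in replicate 2, 13 of 32 were, with a median of -0.0737. Replicate 1 exceeded replicate 2 for all 32 members in shSCR and for 4 of 32 in NI. The count of members called was 2 without NI replicate 1 (27.7% of all genes) and 3 without shSCR replicate 1 (35.9% of all genes). It was 12 (59.4% of all genes) with the replicate number as a block, although NI libraries did not deviate together with the day 12 libraries of their number.

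**Figure D1:**
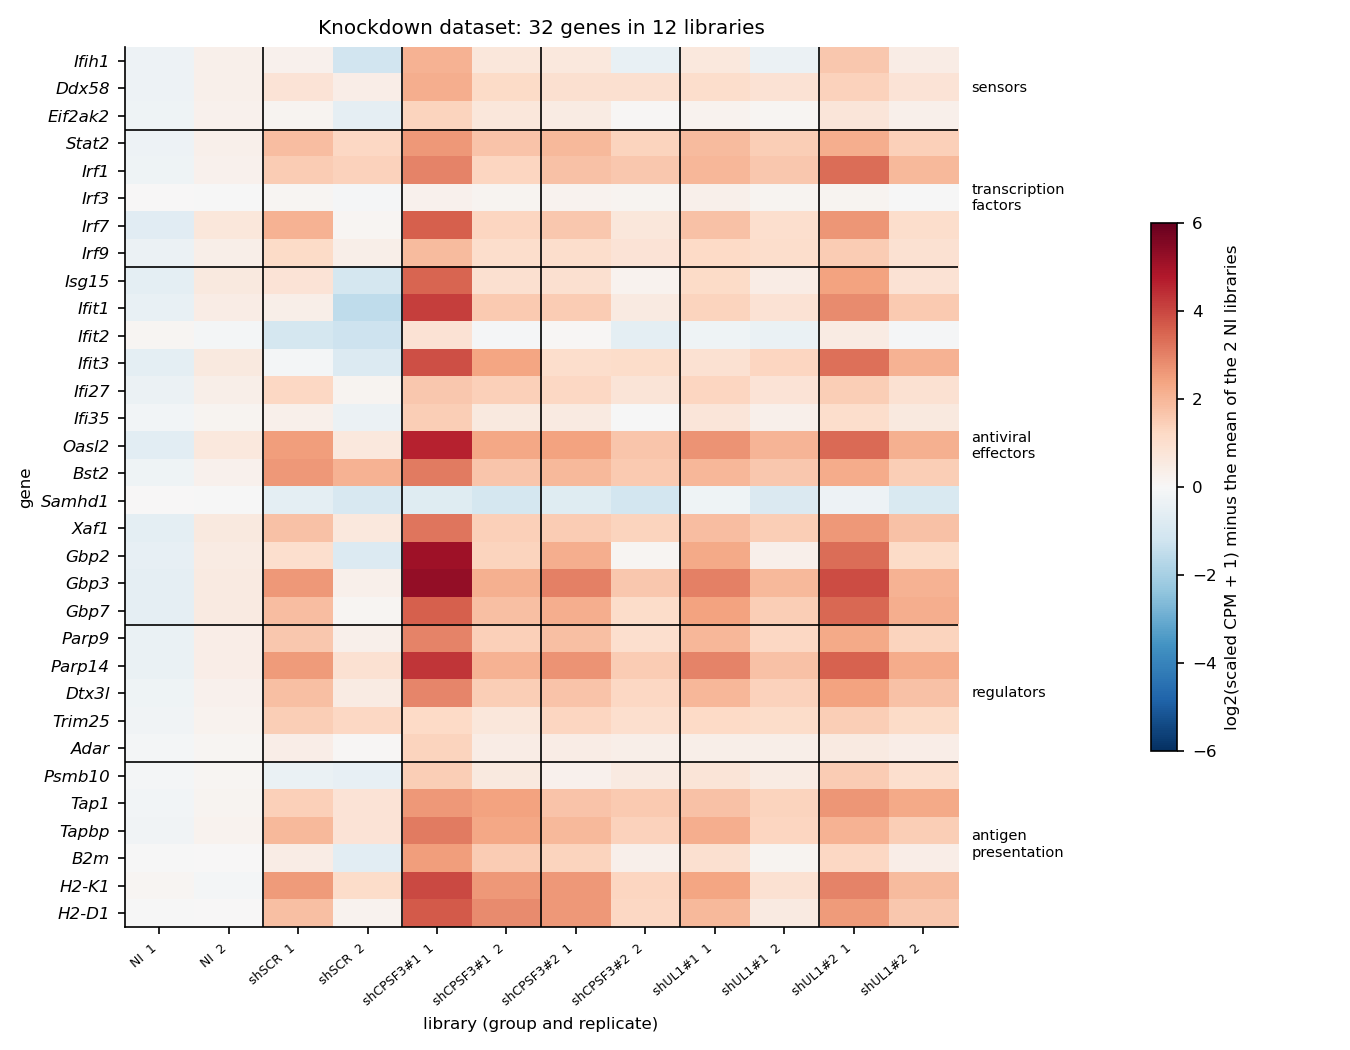
Heatmap of 32 members (rows, grouped by role) in the 12 libraries of the knockdown dataset (columns), coloured by log2(scaled CPM + 1) minus the mean of the 2 NI libraries. *Bst2*, *Trim25* and *Stat2* are red in all day 12 libraries, and the column of shCPSF3#1 replicate 1 holds the highest value of 26 of the 32 members.

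Other genes of the pathway, from lists of related genes, moved in both directions between shSCR and NI, where 22.5% of all genes rose and 22% fell, and in no list was the share that rose above that of all genes. Of 25 other receptors, kinases and adaptors in the table, 3 rose and 1 fell. *Socs3*, a feedback inhibitor of Janus kinases, rose by 4.30 on the log2 scale (adjusted p = 0.00111) and *Tyk2*, a kinase of the type I interferon receptor, by 1.22 (adjusted p = 0.00128), while *Jak1* fell by 0.75 (adjusted p = 0.0421). Of 36 other interferon-induced genes 8 rose and 3 fell, and of 16 other antigen-presentation genes 3 rose and 3 fell, among them *Tap2*, the second transporter subunit, at 1.55 and *H2-T23*, a non-classical MHC class I gene, at 2.96 on the log2 scale, and the chaperone *Calr*, which fell by 0.98.

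Markers of blood and immune cells were higher at day 12. Of 15 markers, 3 were in the knockdown table and all 3 passed the test, with log2 fold changes of 5.92 for *Lyz2*, 2.31 for *Csf1r* and 2.21 for *Cd68*. Their summed level was 9.57 to 10.6 scaled CPM in NI and 171 to 300 in shSCR. Each gene of this table reached 5 scaled CPM in at least 9 of 12 libraries, and 10 of the 12 were of day 12. A marker high in NI alone could thus not be listed. That the listed immune markers were called higher was partly set by this filter, as for the endothelial *Tek* below, at 1.15 to 1.51 in NI. By junction reads that include or skip an exon, not scaled for depth, 11 of 14 markers were higher in both shSCR libraries than in both NI libraries (40.4% of 19063 genes with such reads) and none was lower. *Adgre1* (F4/80, a macrophage marker) had 0 reads in both NI libraries and 409 and 125 in shSCR. The T cell marker *Cd3e* had at most 20 such reads in any of the 18 libraries, and *Siglech*, of plasmacytoid dendritic cells, had 0 in all. Markers of other cells differed too. The epithelial *Krt8* (4.89) and *Krt18* (3.93) and the endothelial *Tek* (3.60) were called higher in shSCR, and of 11 fibroblast markers 4 were called lower, among them *Col1a1* (-2.30), and *Lum* higher (4.14). Whether these cells had a part in the differences of the members was not tested.

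*Cpsf3* knockdown was compared with shSCR at day 12, where both sides carried a vector and an shRNA. The study reports that knockdown of either factor, like T7-TIA1, lowered reprogramming efficiency. How far each group had reprogrammed cannot be told apart here from the change of the factor. With the 2 shRNAs weighted equally, 5 of 32 members passed the test, all higher in the knockdown, against 26.1% of all genes, so that in this fit the share called was below the background. The median log2 fold change was 0.82 over the members and 0.0278 over all genes. In 7 members all 4 knockdown libraries lay above both shSCR libraries (23.9% of all genes), and in none did all 4 lie below.

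*Ifit3* was at 6.96 and 3.79 in shSCR, at 125 and 43.3 with shCPSF3#1 and at 16.8 and 17.5 with shCPSF3#2. All 4 knockdown libraries were higher than both shSCR libraries, most of all the first, and the log2 fold change was 2.57 ± 0.524 (SE, adjusted p = 0.0118). Of the stretches of 100 bases in *Ifit3* transcripts, 31.6% also occur in other genes, most of all *Ifit3b*, so reads of these genes may have been split. *Ifit2* was at 10.4 and 9.05 in shSCR, at 42.7 and 21.99 with shCPSF3#1 and at 24.5 and 15.04 with shCPSF3#2 (1.24 ± 0.297, adjusted p = 0.0202), a range that included the NI levels.

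*Psmb10*, a catalytic subunit of the immunoproteasome, was at 8.41 and 7.98 in shSCR, at 33.9 and 18.2 with shCPSF3#1 and at 14.3 and 17.3 with shCPSF3#2. The groups did not overlap, and the log2 fold change was 1.18 ± 0.249 (adjusted p = 0.0131). *Tap1* was at 29.6 and 19.0 in shSCR, 67.6 and 60.3 with shCPSF3#1 and 36.8 and 32.8 with shCPSF3#2 (0.96 ± 0.218, adjusted p = 0.0166), again without overlap. *B2m*, the light chain of MHC class I, was at 383 and 182 in shSCR, 1630 and 834 with shCPSF3#1 and 729 and 352 with shCPSF3#2. Replicate 2 of shCPSF3#2 lay below replicate 1 of shSCR, and the log2 fold change was 1.54 ± 0.469 (adjusted p = 0.0451).

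Most of the remaining members were higher on average without passing the test. *Ifit1*, another binder of viral RNA, had the largest fold change of them, with 22.02 and 5.36 in shSCR, 325 and 53.6 with shCPSF3#1 and 50.9 and 25.2 with shCPSF3#2 (2.54, adjusted p = 0.0505). All 4 knockdown libraries lay above both shSCR libraries, which for *Isg15* and *Gbp2* they did not. *Isg15*, a ubiquitin-like modifier, was at 25.0 and 5.95 in shSCR, at 162 and 27.5 with shCPSF3#1 and at 27.0 and 15.6 with shCPSF3#2. *Gbp2*, a guanylate-binding protein gene induced by interferon-γ, was at 18.4 and 4.46 in shSCR, at 329 and 23.3 with shCPSF3#1 and at 42.7 and 9.55 with shCPSF3#2. For both, replicate 2 of shCPSF3#2 stood below replicate 1 of shSCR. *Ifih1* had a log2 fold change of 1.19 (adjusted p = 0.171), *Irf7*, the factor that amplifies interferon production, 0.71 (adjusted p = 0.535) and *H2-D1*, an MHC class I heavy chain, 1.56 (adjusted p = 0.0921). *Bst2* was mixed, with 171 and 119 in shSCR, 240 and 87.7 with shCPSF3#1 and 105 and 81.3 with shCPSF3#2. Both shCPSF3#2 libraries lay below both shSCR libraries, while 1 shCPSF3#1 library lay above and the other below them.

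Day 12 libraries of the same number deviated together across genes, and comparing them by number removed much of the spread. Against the shSCR library of the same number, shCPSF3#1 was higher for 30 members in replicate 1 (median log2 difference 1.44) and for 28 in replicate 2 (1.20), and shCPSF3#2 for 22 (0.124) and 29 (0.645), where 50.7 to 54.2% of all genes were higher. In all 4 pairs 21 of 32 members were higher (36.3% of all genes) and *Samhd1* and *Trim25* lower (31.3% of all genes). With the number as a block over all groups, 12 members passed, a share still below that of all genes (49.8%). With the block and the day 12 groups alone, a fit added after the data were seen, 25 passed, a share now above that of all genes (59.2%), 24 higher and *Trim25* lower (-0.31, adjusted p = 0.0332), among them *B2m* (adjusted p = 0.000112), *Ifih1* (0.000235), *H2-D1* (0.000326), *Tap1* (0.000436), *H2-K1* (0.000525), *Ifit1* (0.00105) and *Gbp2* (0.00223). The 7 that did not pass in this fit were *Irf1*, *Irf3*, *Irf7*, *Bst2*, *Samhd1*, *Xaf1* and *Adar*.

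**Figure D2:**
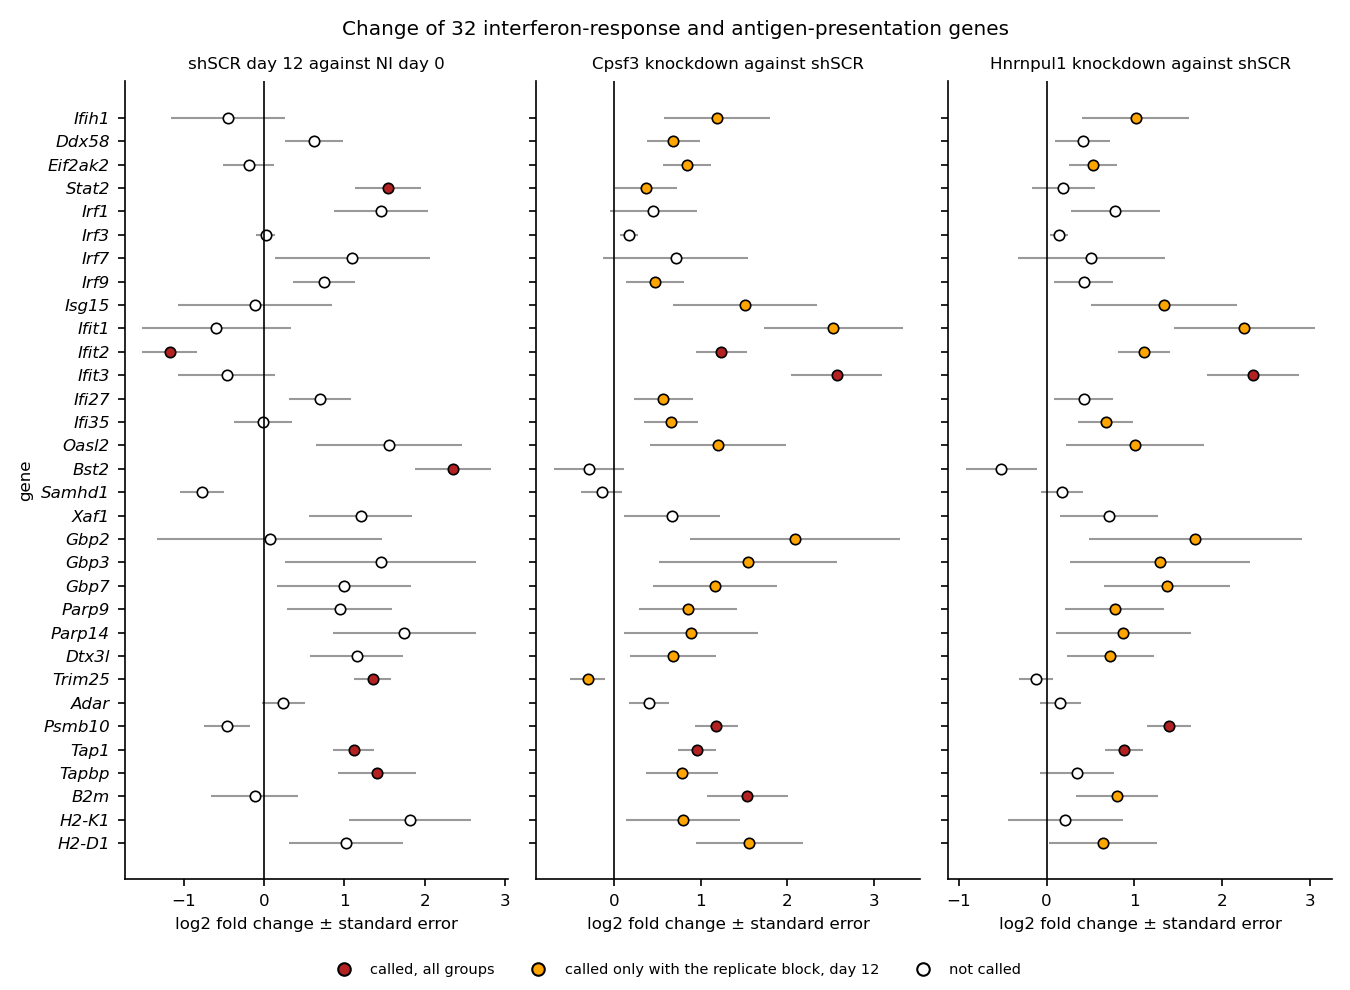
Log2 fold change (points) with its standard error (bars) of 32 members in 3 comparisons of the knockdown dataset. Red points passed the test with all groups in the fit (6, 5 and 3 members), orange points passed with the replicate number as a block in the day 12 groups alone, and white points passed neither, with the block fit made for the knockdowns alone.

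The count of members called in *Cpsf3* knockdown was 0 without shSCR replicate 2 (6.26% of all genes), 3 without shCPSF3#2 replicate 1 (16% of all genes), 9 without shCPSF3#1 replicate 2 (19.2% of all genes), and 0 when the compared groups alone entered the fit (3.65% of all genes). Some markers of immune cells moved with the members here too. The summed level of the 3 in the table was 171 to 300 in shSCR, 1371 to 1814 with shCPSF3#1 and 429 to 1282 with shCPSF3#2, and all 3 were called, with log2 fold changes of 2.42 for *Lyz2*, 1.68 for *Csf1r* and 0.87 for *Cd68*. By junction reads of an exon, 6 of 14 markers were above shSCR in all 4 knockdown libraries (14.5% of genes with such reads) and 1, *Cd3e*, was below in all 4 (15.1%). *Adgre1* had 6348 and 1371 reads with shCPSF3#1 and 1996 and 398 with shCPSF3#2, and *Laptm5* had 1244 and 1507 in shSCR and 1206, 1943, 1617 and 1465 in the knockdown. Of 11 fibroblast markers 5 were called higher, and the 3 epithelial markers in the table were all called lower. The part of these cells in the differences was not tested.

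Against 16.7% of all genes that rose and 9.35% that fell, 2 of 25 other receptors, kinases and adaptors rose in *Cpsf3* knockdown, among them *Jak1* (1.08, adjusted p = 0.0116). Of 36 other interferon-induced genes 7 rose, among them *Irgm1*, an immunity-related GTPase (1.80), and *Lgals3bp* (1.51), and *Ifi30* fell by 0.99. Of 16 other antigen-presentation genes 3 rose, among them *Erap1*, the aminopeptidase that trims peptides for MHC class I (1.55, adjusted p = 0.0229), and *Tap2* (1.05, adjusted p = 0.0497).

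*Hnrnpul1* knockdown gave a smaller count against the same shSCR libraries, which both knockdown comparisons share. Of 32 members 3 passed the test, all higher, against 10.5% of all genes. The median log2 fold change was 0.72 over the members and 0.0042 over all genes, and 6 members lay above shSCR without overlap (21.3% of all genes), namely *Irf1*, *Ifit1*, *Ifit2*, *Ifit3*, *Ifi35* and *Psmb10*.

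*Psmb10* was at 8.41 and 7.98 in shSCR, at 20.4 and 16.7 with shUL1#1 and at 34.8 and 24.1 with shUL1#2 (log2 fold change 1.39 ± 0.249, SE, adjusted p = 0.0155). *Ifit3* was at 6.96 and 3.79 in shSCR, at 15.1 and 19.7 with shUL1#1 and at 82.1 and 34.6 with shUL1#2 (2.35 ± 0.524, adjusted p = 0.0302). For both, all 4 knockdown libraries were above both shSCR libraries and shUL1#2 was the higher shRNA. *Tap1* was at 29.6 and 19.0 in shSCR, at 37.9 and 28.0 with shUL1#1 and at 69.8 and 53.3 with shUL1#2 (0.88 ± 0.218, adjusted p = 0.0406), and here replicate 2 of shUL1#1 lay below replicate 1 of shSCR. *Ifit1* had the largest fold change of those that did not pass, with 22.02 and 5.36 in shSCR, 45.7 and 31.8 with shUL1#1 and 131 and 53.4 with shUL1#2 (2.25, adjusted p = 0.113), without overlap. *B2m* was at 383 and 182 in shSCR and at 560 and 317 and 675 and 376 with the 2 shRNAs (0.80, adjusted p = 0.297), with overlap.

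The interferon regulatory factors did not pass. *Irf1*, which drives MHC class I genes, was at 38.8 and 34.0 in shSCR, at 54.1 and 41.2 with shUL1#1 and at 139 and 51.6 with shUL1#2 (0.78, adjusted p = 0.338). All 4 knockdown libraries were higher, replicate 1 of shUL1#2 by far. *Irf3*, which is made without stimulation and activated by phosphorylation, was at 46.0 and 40.8 in shSCR and at 41.9 to 53.7 in the knockdown libraries. *Irf9*, the DNA-binding partner of the STATs, was at 49.0 and 27.6 in shSCR and at 41.9 to 64.5, with overlap. Against the shSCR library of the same number, *Irf1*, *Irf3* and *Irf9* were each higher in all 4 pairs, and with the number as a block in the day 12 groups alone they still missed the threshold (adjusted p = 0.0974, 0.178 and 0.0662).

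Within the same number, shUL1#1 was higher than shSCR for 27 members in replicate 1 (median log2 difference 0.259) and for 29 in replicate 2 (0.726), and shUL1#2 for 31 (0.714) and 30 (1.06), where 49.2 to 52.0% of all genes were higher. In all 4 pairs 27 of 32 members were higher (34.2% of all genes) and *Bst2* lower (33.9% of all genes). With the number as a block, 6 members passed over all groups, a share below that of all genes (29.3%), and 18 in the day 12 groups alone, a share above it (42.2%), all higher. The 14 that did not pass in the latter fit were *Ddx58*, *Stat2*, *Irf1*, *Irf3*, *Irf7*, *Irf9*, *Bst2*, *Ifi27*, *Samhd1*, *Xaf1*, *Adar*, *Trim25*, *Tapbp* and *H2-K1*. Without either shSCR replicate, shUL1#1 replicate 1 or shUL1#2 replicate 1 the count was 0 (1.67 to 3.24% of all genes), and it was 1 with the compared groups alone (1.54% of all genes).

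None of the 3 immune markers in the table was called in *Hnrnpul1* knockdown, although their summed level, 259 to 533 with shUL1#1 and 581 to 1000 with shUL1#2, lay mostly above that of shSCR. By junction reads of an exon, 3 of 14 markers were above shSCR in all 4 knockdown libraries (12.9% of genes with such reads) and 1 below (15.2%). *Adgre1* had 1213 and 223 reads with shUL1#1 and 2108 and 576 with shUL1#2. Of 11 fibroblast markers 5 were called higher, among them *Postn* (2.66) and *Col3a1* (2.48), with a median log2 fold change of 1.38 over the 11. The 3 epithelial markers in the table lay below shSCR without overlap and without a call, among them *Krt18* (-2.23, adjusted p = 0.0594), and *Tek* lay above it without overlap and without a call (1.44). The part of these cells in the differences was not tested. Of all genes 7.31% rose. Of the other pathway genes none of 25 receptors, kinases and adaptors was called, 5 of 36 interferon-induced genes rose, among them *Irgm1* (1.67) and *Rbm43* (1.06), and of 16 antigen-presentation genes *Erap1* rose (1.52, adjusted p = 0.0436).

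*Gbp3*, *Gbp2*, *Ifit1* and *Oasl2*, all antiviral effectors, had the widest ranges of the 32 members over the 12 libraries. *Gbp3* ranged from 2.25 to 178 scaled CPM (79.2-fold), *Gbp2* from 4.46 to 329 (73.9-fold), *Ifit1* from 5.36 to 325 (60.7-fold) and *Oasl2* from 3.51 to 175 (49.7-fold), each with its highest value in shCPSF3#1 replicate 1. *Gbp3* was at 2.25 and 5.81 in NI, 27.7 and 4.77 in shSCR, 178, 19.9, 36.7 and 13.3 in *Cpsf3* knockdown and 37.1, 17.3, 70.5 and 18.7 in *Hnrnpul1* knockdown. shSCR replicate 2 lay within the range of NI, while the first replicate of each day 12 group stood above the other. *Gbp7* had log2 fold changes of 1.17 in *Cpsf3* knockdown (adjusted p = 0.245) and 1.37 in *Hnrnpul1* knockdown (adjusted p = 0.250). Of its transcript sequence, 10.01% is shared with other genes, most of all *Gm43802*.

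*Parp14*, a regulator and an ADP-ribosyltransferase, was at 3.41 and 6.46 in NI, 33.0 and 9.92 in shSCR, 110, 23.05, 35.9 and 15.4 in *Cpsf3* knockdown and 43.8, 18.3, 65.9 and 26.0 in *Hnrnpul1* knockdown. It did not overlap between NI and shSCR (log2 fold change 1.75, adjusted p = 0.146) and overlapped between shSCR and both knockdowns (0.89 and 0.88, adjusted p = 0.401 and 0.485). *Parp9* ranged from 9.35 to 105 and *Dtx3l* from 7.14 to 73.2, both lowest in NI replicate 1. *Adar* ranged from 31.9 to 88.5. Among the sensors, *Eif2ak2* was at 44.2 and 64.6 in NI, 59.3 and 36.7 in shSCR, 136, 87.1, 75.6 and 56.4 in *Cpsf3* knockdown (0.84, adjusted p = 0.0556) and 62.9, 57.5, 88.8 and 66.2 in *Hnrnpul1* knockdown (0.53, adjusted p = 0.244), and *Ifih1* had a log2 fold change of 1.02 in *Hnrnpul1* knockdown (adjusted p = 0.307). The remaining effectors *Xaf1* (7.78 to 120), *Ifi27* (38.2 to 152) and *Ifi35* (7.92 to 30.3) also peaked in shCPSF3#1 replicate 1. Against the same-numbered shSCR library, *Parp14*, *Gbp7*, *Eif2ak2* and *Ifih1* were higher in all 4 pairs of each knockdown (36.3 and 34.2% of all genes). They also passed in both knockdowns with the block in the day 12 groups alone (59.2 and 42.2% of all genes), the fit added after the data were seen.

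A direct comparison of the 2 knockdowns called none of 32 members, against 0.0424% of all genes (4 genes), and the median log2 difference of the members was 0.17. The largest was that of *H2-D1*, at 611, 343, 295 and 113 in *Cpsf3* knockdown and 186, 69.8, 281 and 146 in *Hnrnpul1* knockdown (0.92, adjusted p = 0.515), and the largest of the other roles were *Gbp2* (0.40), *Irf1* (-0.33), *Eif2ak2* (0.31) and *Adar* (0.24). At an unadjusted p under 0.05 limma gave no member (12.8% of all genes). With the number as a block in the day 12 groups alone 5 members passed (14.5% of all genes). *H2-D1*, *B2m* (0.74, adjusted p = 0.0141), *H2-K1* (0.58, adjusted p = 0.0162) and *Tapbp* (0.44, adjusted p = 0.0317) were higher in *Cpsf3* knockdown, and *Samhd1* was lower (-0.32, adjusted p = 0.0303). The share of members was close to that of all genes.

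The 2 shRNAs against one factor did not give equal levels. shCPSF3#1 lay above shCPSF3#2 without overlap for 13 of 32 members (23% of all genes), and the median log2 difference was 0.84, but none passed the test (0.0212% of all genes), and 2 did at an unadjusted p under 0.05 (11.6% of all genes). With the block over all groups *H2-K1* and *B2m* passed (4.31% of all genes), and in the day 12 groups alone 21 members did (26.2% of all genes), all higher with shCPSF3#1, among them *Ifih1* (1.28, adjusted p = 0.00306), *H2-K1* (1.35, adjusted p = 0.00306) and *B2m* (1.20, adjusted p = 0.00306). Between shUL1#1 and shUL1#2 the median was -0.45, 7 members were lower with shUL1#1 without overlap (13.2% of all genes) and none passed (0% of all genes without the block, and 0% with it in either set of groups), while 2 did at an unadjusted p under 0.05 (5.06% of all genes). *Ifit3* differed most there (-1.58, adjusted p = 0.919), and the largest of the other roles were *Ifih1* (-0.90), *Tap1* (-0.88), *Irf1* (-0.83) and *Parp14* (-0.53). Without the block the largest differences between shCPSF3#1 and shCPSF3#2 by role were those of *Gbp2* (2.06), *H2-K1* (1.35), *Irf7* (1.30), *Ifih1* (1.28) and *Parp14* (1.07). All 3 immune markers in the table were higher with shCPSF3#1 without overlap (median 1.09, 23% of all genes), and 2 of 3 epithelial markers lower (21.5%). With shUL1#1 all 3 immune markers were lower than with shUL1#2 without overlap (median -0.82, 13.2% of all genes). None of these markers was called, and their part in the differences was not tested.

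A single library held most of the highest values. shCPSF3#1 replicate 1 was the highest of the 12 libraries for 26 of 32 members, against 17.3% of all genes, at a median of 1.64 times and at most 3.35 times the next library, the latter for *Gbp2*. shUL1#2 replicate 1 was highest for 4 members, *Irf1*, *Psmb10*, *Tap1* and *Trim25*. NI replicate 1 was the lowest for 19 members and shSCR replicate 2 for 11. In the 5 day 12 groups of this dataset, replicate 1 exceeded replicate 2 for 30 to 32 of 32 members, by a median log2 difference of 0.489 to 1.20, where 44.3 to 50.8% of all genes were higher in replicate 1. Of 14 immune markers with an exon event, 8, 6, 11, 9 and 9 had more reads in replicate 1 than in replicate 2 of shSCR, shCPSF3#1, shCPSF3#2, shUL1#1 and shUL1#2, and 4, 7, 1, 4 and 4 had fewer. *Adgre1* had more in replicate 1 of all 5 groups, whereas *Laptm5*, a leukocyte membrane gene, had fewer in replicate 1 of shSCR, shCPSF3#1 and shUL1#2.

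**Figure D3:**
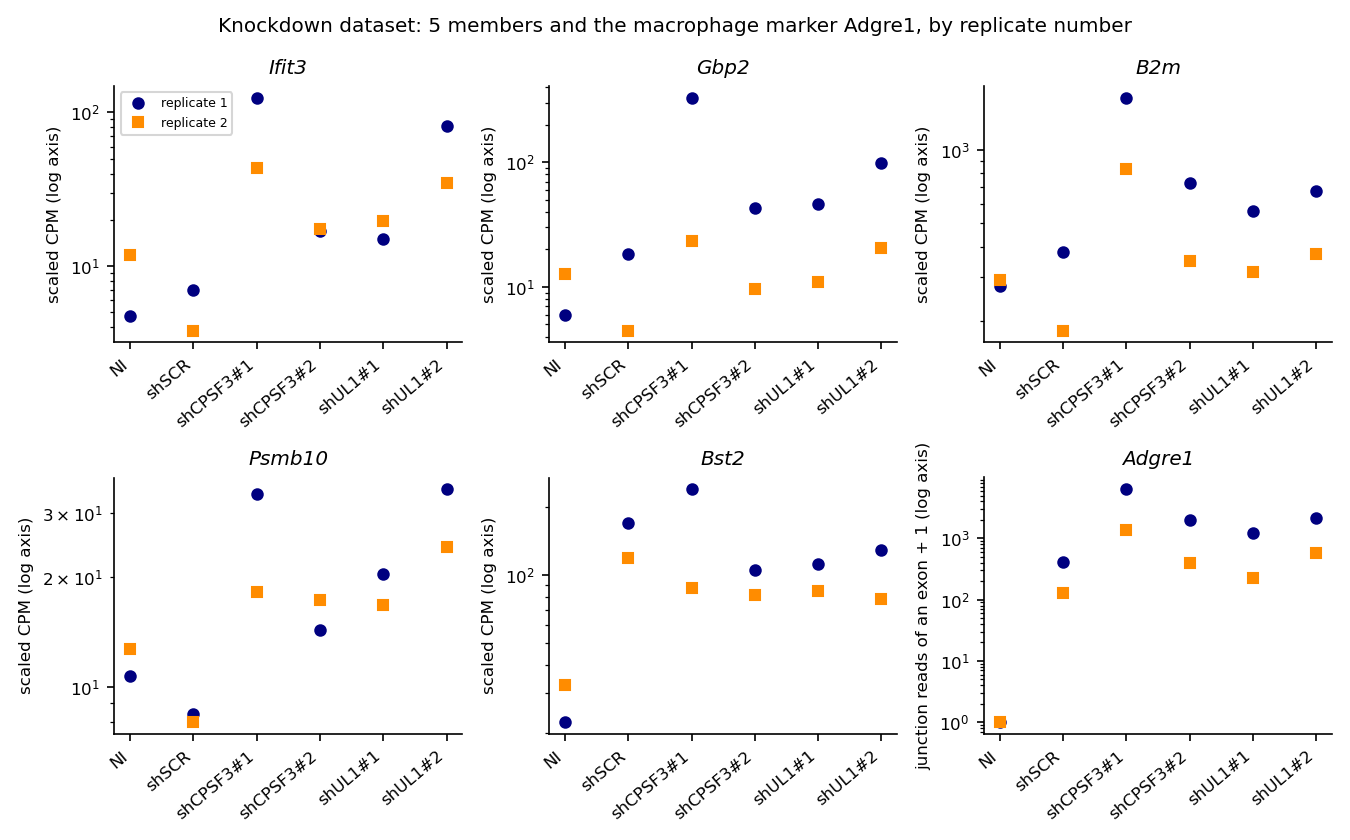
Scaled CPM (log axis) of *Ifit3*, *Gbp2*, *B2m*, *Psmb10* and *Bst2*, and junction reads of an exon of the macrophage marker *Adgre1* plus 1 (log axis), in the 12 libraries of the knockdown dataset, with circles for replicate 1 and squares for replicate 2. At day 12 the circle lies above the square in most groups, while in NI it lies below it for all 5 members.

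In the overexpression dataset, 8 of 23 members passed the test between Empty at day 12 and NI at day 0, 5 higher and 3 lower, against 46.5% of all genes. The share called was again below the background, and the median log2 fold change was 0.15 over the members and 0.0128 over all genes. Without overlap 7 members were higher (37.6% of all genes) and 6 lower (36.8% of all genes).

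*Bst2* was at 43.2 and 11.8 in NI and at 126 and 116 in Empty (log2 fold change 2.36 ± 0.549, SE, adjusted p = 0.0186). *Trim25* was at 97.2 and 73.0 in NI and at 168 and 171 in Empty (1.00 ± 0.156, adjusted p = 0.00543). *Tap1* was at 15.5 and 14.9 in NI and at 25.3 and 28.4 in Empty (0.78 ± 0.114, adjusted p = 0.00450). These 3 genes were thus called higher at day 12 in both datasets. *Irf1* was at 18.8 and 22.9 in NI and at 40.6 and 40.8 in Empty (0.94 ± 0.128, adjusted p = 0.00373), and *Psmb10* was at 12.3 and 10.6 in NI and at 16.1 and 16.8 in Empty (0.49 ± 0.124, adjusted p = 0.0243).

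Of the 3 that fell, *Eif2ak2*, which encodes PKR, the kinase that halts translation on double-stranded RNA, was at 87.7 and 63.2 in NI and at 36.5 and 42.9 in Empty (-0.90 ± 0.184, adjusted p = 0.0125). *Samhd1* was at 216 and 137 in NI and at 90.6 and 87.4 in Empty (-0.94 ± 0.225, adjusted p = 0.0202), and *B2m* was at 348 and 301 in NI and at 164 and 220 in Empty (-0.76 ± 0.185, adjusted p = 0.0209). In none of the 3 did the groups overlap. *Ifih1* had the largest fall of the sensors without passing, with 26.3 and 7.15 in NI and 5.07 and 6.94 in Empty (-1.10, adjusted p = 0.155), and there NI replicate 2 lay only just above the Empty libraries. *Ifit2* was at 23.5 and 18.2 in NI and at 8.24 and 14.2 in Empty (-0.87, adjusted p = 0.0532), and *Dtx3l* at 14.8 and 10.1 in NI and at 18.3 and 21.04 in Empty (0.64, adjusted p = 0.0599), both without overlap. *Irf9* (-0.30, adjusted p = 0.439) and *Tapbp* (0.30, adjusted p = 0.314) overlapped.

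Side by side, the 2 tables, which were normalised separately and are not compared by a test, held 5 of 23 members higher (26.7% of the genes in both tables) and 2 lower (29.2%) at day 12 without overlap in both, and 2 that lay in opposite directions (2.79%). *Stat2* was lower in Empty than in NI, at 49.6 and 48.5 in NI and 40.5 and 42.5 in Empty, which did not pass the test, and higher in shSCR. *Psmb10* was higher in Empty and lower in shSCR, where it did not pass. The count in this dataset was 17 without NI replicate 2 (62.8% of all genes), with 7 members higher and 10 lower, and 2 without Empty replicate 1 (15.6% of all genes). With the replicate number as a block it was 8 (46.4% of all genes). The 2 NI libraries differed, since NI replicate 1 was the higher for 19 of 23 members.

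In Empty 22.8% of all genes rose and 23.6% fell. Of 25 receptors, kinases and adaptors 4 rose and 10 fell. *Ifngr2* and *Ifngr1*, the chains of the interferon-γ receptor, fell by 1.76 and 0.96 on the log2 scale (adjusted p = 0.00104 and 0.00319) and *Jak1* by 1.03 (adjusted p = 0.00265), while *Socs3* rose by 2.33 (adjusted p = 0.00677) and *Mavs*, the mitochondrial adaptor of the RNA sensors, by 0.87 (adjusted p = 0.00242). Of 31 other interferon-induced genes 6 rose and 8 fell, among them *Ifitm2* at 1.40 and *Ifitm3* at 0.83, which encode proteins that block virus entry. Of 13 other antigen-presentation genes *Psme1*, a proteasome activator subunit, rose by 0.51 and 5 fell, among them *Erap1* by 0.88 and *Calr* by 1.13.

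None of the 15 immune markers was in the overexpression table, but junction reads of an exon were higher without overlap in Empty than in NI for 11 of 14 (41.3% of genes with such reads) and in T7-TIA1 than in Empty for 5 (12.3%), and lower for none. *Adgre1* had 0 reads in both NI libraries, 24 and 108 in Empty and 109 and 101 in T7-TIA1, and *Lyz2* had 21 and 28 in NI, 918 and 4042 in Empty and 3863 and 4222 in T7-TIA1. The summed level of fibroblast markers was 17002 to 38951 in NI, 6514 to 7300 in Empty and 5281 to 5671 in T7-TIA1. Of 10 in the table, 6 were called lower in Empty than in NI, and 9 were lower in T7-TIA1 than in Empty without overlap and without a call. Their part in the differences was not tested.

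T7-TIA1 was compared with Empty at day 12. None of 23 members passed the test, as none of all 9472 genes did (0%), and limma gave 2 members at an unadjusted p under 0.05 (4.15% of all genes), *Eif2ak2* (log2 fold change 0.51) and *Ifi35* (0.44). With the replicate number as a block none passed either (0% of all genes). The members were mostly a little higher with T7-TIA1. Their median log2 fold change was 0.28, against -0.0021 over all genes, 16 of 23 were higher without overlap (27.3% of all genes), and 2, *Irf1* and *Irf3*, were lower (24.7% of all genes).

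*Xaf1*, which promotes apoptosis, had the largest difference, with 20.2 and 23.4 in Empty and 34.5 and 47.1 in T7-TIA1 (0.86, adjusted p = 0.999). *Ifih1* was at 5.07 and 6.94 in Empty and at 9.75 and 13.4 in T7-TIA1 (0.84, adjusted p = 0.999), and *Irf9* at 26.0 and 32.9 in Empty and 38.7 and 48.7 in T7-TIA1 (0.55, adjusted p = 0.999). In each of the 3 the groups did not overlap, though replicate 2 of T7-TIA1 was well above replicate 1. *Dtx3l*, a ubiquitin ligase, was at 18.3 and 21.04 in Empty and at 24.4 and 31.7 in T7-TIA1, and *Parp9*, its ADP-ribosyltransferase partner, at 22.5 and 25.7 and at 27.5 and 38.0. *Tapbp* was at 54.1 and 55.3 in Empty and at 80.4 and 70.4 in T7-TIA1 (0.45). Replicate 2 of T7-TIA1 was the highest of the 6 libraries for 12 of 23 members, against 6.31% of all genes.

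**Figure D4:**
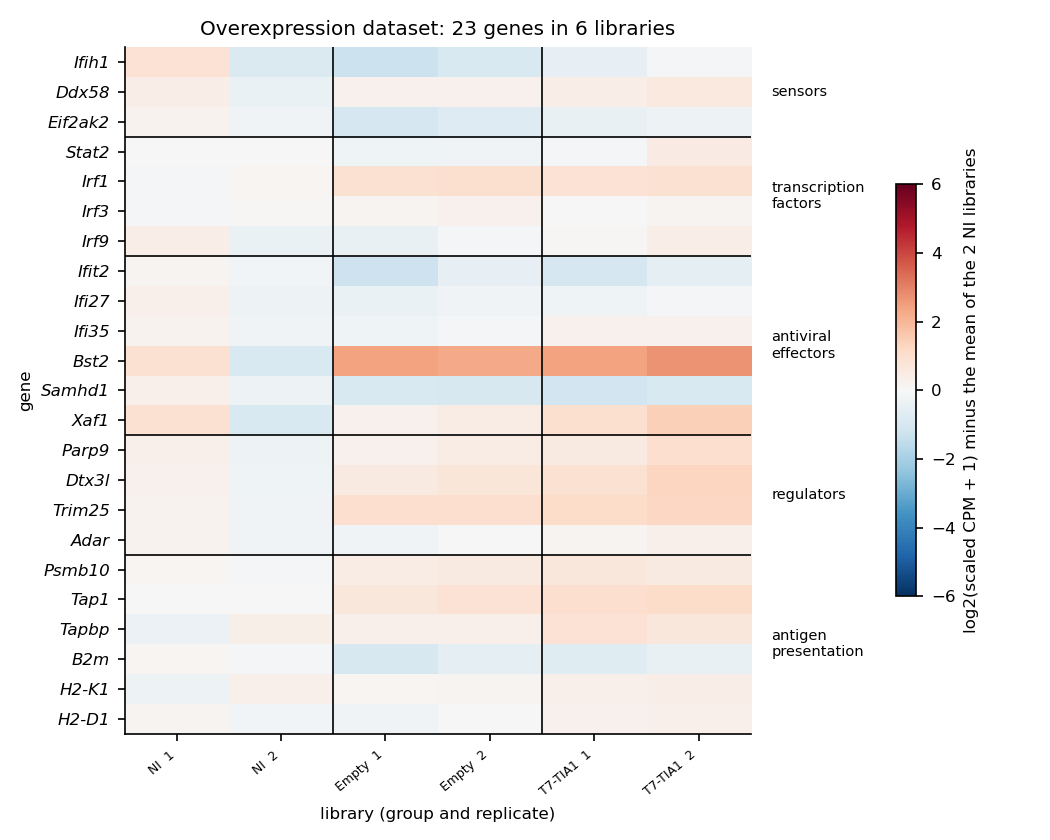
Heatmap of 23 members (rows, grouped by role) in the 6 libraries of the overexpression dataset (columns), coloured by log2(scaled CPM + 1) minus the mean of the 2 NI libraries. *Bst2* is red and *Samhd1* blue in all 4 day 12 libraries, and T7-TIA1 replicate 2 holds the highest value of 12 of the 23 members.

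Members missing from a table are described by the junction reads that include or skip the exon with most such reads, with no test. The exon was included at a PSI of 95.1 or more in every library for all but *Psmb9*, at 60.0 or more, and *Ifit3*, whose single exon event was included at 1.45 to 9.09, so that its reads are mostly junctions that skip that exon. *Usp18*, which removes ISG15 and dampens interferon signalling, had 60 and 186 reads in NI, 407 and 90 in shSCR, 1897, 565, 440 and 267 in *Cpsf3* knockdown and 372, 274, 843 and 398 in *Hnrnpul1* knockdown. *Psmb8*, an immunoproteasome subunit, had 48 and 102 in NI, 477 and 125 in shSCR, 1490, 814, 536 and 316 in *Cpsf3* knockdown and 629, 256, 1748 and 864 in *Hnrnpul1* knockdown. *Psmb9*, another such subunit, had 4 and 9 in NI, 46 and 40 in shSCR and 67 to 360 in the 8 knockdown libraries. Of these 3, *Psmb9* alone was above shSCR in every knockdown library (9.61% of genes with such reads). *Dhx58*, the regulatory helicase LGP2, had 40 and 48 in NI, 160 and 45 in shSCR and 88 to 386 in the knockdown libraries.

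In the overexpression dataset, *Irf7* had 287 and 60 reads in NI, 106 and 167 in Empty and 291 and 490 in T7-TIA1. *Ifit3* had 105 and 31 in NI, 36 and 102 in Empty and 147 and 344 in T7-TIA1, and *Usp18* had 383 and 36 in NI, 80 and 180 in Empty and 337 and 525 in T7-TIA1. In all 3, both T7-TIA1 libraries were above both Empty libraries and the NI libraries spanned a wide range. The same order of T7-TIA1 and Empty without overlap held for *Oasl2*, *Gbp2*, *Gbp3* and *Psmb8*, and not for *Dhx58*, *Psmb9*, *Gbp7* and *Parp14*, so that 7 of 11 members lay above Empty against 12.3% of all genes with such reads. These reads are not scaled for depth, and the 7 carry no test. *Isg15* and *Ifit1* had no exon event, and so no reads are given for them here.

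Splicing of the members was measured as percent spliced in (PSI), the share of transcripts that include an exon, keep an intron or use a given splice site, over 1145 events of the 36 members. An event counted when mean PSI differed by at least 10 with a gap of at least 5 between the libraries of the groups, and for a knockdown each of its 2 shRNAs had to pass on its own against shSCR in the same direction. Of events with at least 10 reads in each library, 13 of 964 changed by this rule between shSCR and NI (1.22% of all events), 5 of 1062 in *Cpsf3* knockdown (0.371% of all events), 4 of 1057 in *Hnrnpul1* knockdown (0.315% of all events), 2 of 951 between Empty and NI (0.679% of all events) and 3 of 1053 between T7-TIA1 and Empty (0.342% of all events). These shares carry no test, and the counts turned on single libraries and on the limits. Without NI replicate 1, 21 events passed between shSCR and NI (1.67% of all events). Without shSCR replicate 1, 12 passed in *Cpsf3* knockdown (0.697% of all events) and 9 in *Hnrnpul1* knockdown (0.616% of all events). Between Empty and NI, leaving out any 1 of the 4 libraries gave 5 to 12 (0.928 to 1.41% of all events), and between T7-TIA1 and Empty it gave 8 without T7-TIA1 replicate 2 (1% of all events), 7 without Empty replicate 1 (0.782% of all events) and 8 without Empty replicate 2 (0.927% of all events). With a minimum difference of 15, 3 passed between shSCR and NI (0.638% of all events), 1 in *Cpsf3* knockdown (0.177% of all events) and 1 between Empty and NI (0.342% of all events). In this measure events of one splice site choice are counted once per site.

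A *Samhd1* exon of 123 nt (mm10 chr2:157101321-157101443) had a PSI of 10.8 and 10.8 in NI, 56.3 and 37.0 in shSCR, 20.4, 17.5, 25.5 and 11.6 in *Cpsf3* knockdown and 23.2, 21.7, 25.7 and 18.1 in *Hnrnpul1* knockdown. Inclusion was thus highest in shSCR and lower in all 8 knockdown libraries, which still lay above NI. In the overexpression dataset it was 14.7 and 13.0 in NI, 21.2 and 14.8 in Empty and 9.79 and 12.5 in T7-TIA1. A distal 5′ splice site of *Adar*, which encodes the enzyme that edits adenosine in double-stranded RNA, was used at 53.9 and 55.2 in NI, 71.5 and 76.2 in shSCR, 53.9, 58.7, 58.5 and 65.0 in *Cpsf3* knockdown and 48.9, 61.3, 54.0 and 61.7 in *Hnrnpul1* knockdown. Within the knockdown dataset its use was highest in shSCR, and that of the site upstream of it lowest. In the overexpression dataset it was used at 64.3 and 59.3 in NI, 75.0 and 58.4 in Empty and 69.8 and 60.8 in T7-TIA1, with overlap between the groups.

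A pair of 3′ splice sites of *Stat2* that lie 3 nt apart differed in *Cpsf3* knockdown, where the downstream site was used at 24.02, 46.5, 16.7 and 16.2 against 5.15 and 2.17 in shSCR and 7.01 to 16.3 in *Hnrnpul1* knockdown. NI cells used it at 2.56 and 1.47 in the knockdown dataset but at 50.5 and 100 in the overexpression dataset, where Empty was at 51.4 and 55.6 and T7-TIA1 at 63.5 and 43.6. All 6 libraries of that dataset thus lay above NI and shSCR of the other. A *Ddx58* intron of 1531 nt was kept more at day 12 in both datasets, at 2.04 and 2.73 in NI and 7.88 and 22.2 in shSCR, and at 1.82 and 1.93 in NI and 22.2 and 20.5 in Empty. Its retention with T7-TIA1 was 20.3 and 16.1. Introns of *Irf3*, *Irf7* and *Ifi27* were also kept more in shSCR than in NI, and introns of *Psmb10*, *Dhx58* and *Stat2* less.

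The 3 events that passed with T7-TIA1 were all exons skipped more often than in Empty. A *Trim25* exon of 99 nt (chr11:89015533-89015631) was included at 92.6 and 88.7 in Empty and at 71.9 and 77.9 in T7-TIA1, and at 84.9 to 97.5 in all 12 libraries of the knockdown dataset. A *Gbp3* exon of 195 nt (chr3:142560496-142560690) was included at 52.7 and 71.2 in Empty and at 41.1 and 37.0 in T7-TIA1, and at 46.1 to 67.0 in the knockdown dataset. For *Ifi27*, an exon of 135 nt (chr12:103437390-103437524) was included at 83.3 and 84.7 in Empty and at 71.5 and 75.0 in T7-TIA1, and at 74.8 to 87.0 in the knockdown dataset, where shSCR replicate 2 lay within the range of T7-TIA1. All 3 lengths are multiples of 3, and none of the 3 exons passed the rule in another comparison.

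**Figure D5:**
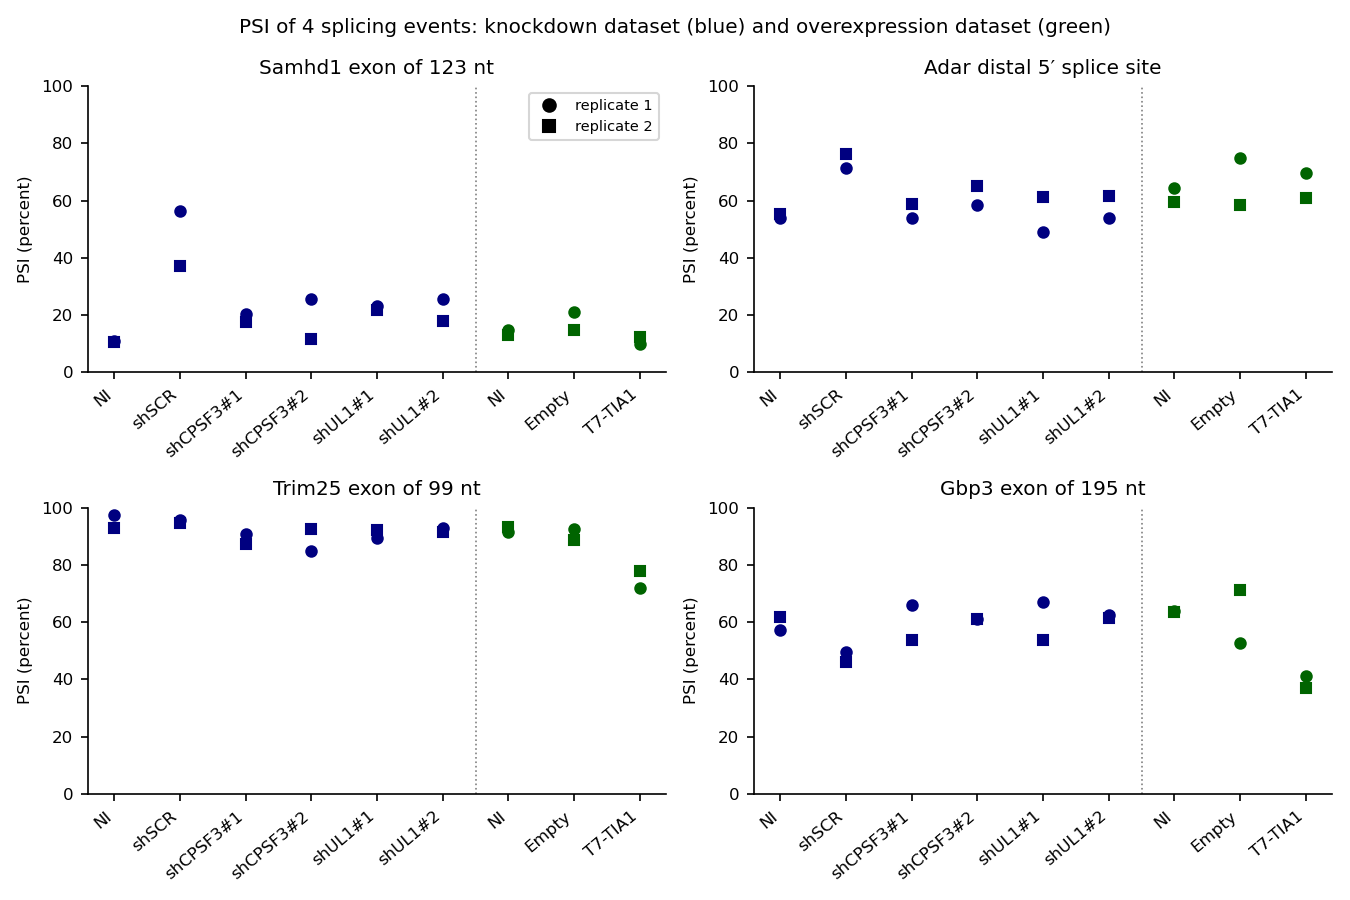
PSI in percent of 4 events (*Samhd1* exon of 123 nt, *Adar* distal 5′ splice site, *Trim25* exon of 99 nt, *Gbp3* exon of 195 nt) in the 9 groups, with circles for replicate 1, squares for replicate 2, blue for the knockdown and green for the overexpression dataset. *Samhd1* and *Adar* are highest in shSCR within the knockdown dataset, and *Trim25* is lowest in T7-TIA1, at 71.9 and 77.9.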

How the data were processed

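RNA-seq of 18 libraries was analysed. The authors aligned the reads with STAR 2.7.1a to mm10 and, per the labels and the study's methods, deposited expression tables of scaled CPM made with edgeR 3.16.5, a signal relative to library sizes scaled separately in each table, and vast-tools tables of PSI in percent, with a quality score that holds the reads of each event. The authors kept expressed genes: each listed gene reached 5 scaled CPM in at least 9 of 12 knockdown or all 6 overexpression libraries. The samples' time label disagreed with the titles for shUL1#2 and the overexpression NI libraries, and titles were used.

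Values were taken as log2(scaled CPM + 1) and tested with limma 3.58.1 (R 4.3.3, trended variance, two-sided), all groups of a table in one fit, Benjamini-Hochberg over all its genes, threshold 0.05. The fit was tested on simulated data. Fold changes on this scale understate those of low genes. Nothing states that replicates were separate cultures, so p-values measure only the spread between these libraries, which may be technical. Same-numbered day 12 knockdown-dataset libraries deviated together from their group means (Pearson r 0.674 to 0.949 across genes, every pair), so the number was taken to pair them, and NI was not paired (r -0.127 to 0.0218). Coordinates are of mm10, and transcripts shared between genes were searched in stretches of 100 bases. Genes with an identifier but no symbol (96 and 125) stayed in the fits.

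The members and lists were chosen with earlier results of these data known. Named members are those that passed the test in a comparison plus, for each role, the one with the largest change that did not, and further members described by their values were chosen after these were seen. Alternatives were another constant, a filter on low means, rescaled libraries, no variance trend, compared groups alone, the replicate block, leaving out each library and other splicing limits.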

Additional observations from a re-analysis of the deposited data

Results flagged for a closer look

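With the replicate number as a block in the day 12 groups of the knockdown dataset, a fit added after the data were seen, 5 members of 32 differed between *Cpsf3* and *Hnrnpul1* knockdown, a share close to that of all genes (14.5%). The log2 difference was 0.74 for *B2m*, 0.58 for *H2-K1*, 0.92 for *H2-D1* and 0.44 for *Tapbp*, all higher in *Cpsf3* knockdown, and -0.32 for *Samhd1*. In the same fit 21 members differed between shCPSF3#1 and shCPSF3#2 (26.2% of all genes), all higher with shCPSF3#1. The 3 immune markers in the table were also higher with shCPSF3#1 without overlap (23% of all genes), without a call, and their part was not tested.

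A pair of members lay in opposite directions between day 0 and day 12 in the 2 datasets, with no overlap of libraries in either. *Stat2* had a log2 fold change of -0.24 between Empty and NI and of 1.54 between shSCR and NI. *Psmb10* had one of 0.49 between Empty and NI and of -0.46 between shSCR and NI. Neither *Stat2* in Empty nor *Psmb10* in shSCR passed the test. The difference between the datasets was not tested, and the tables were normalised separately.

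Members absent from an expression table still had junction reads that include or skip an exon, except *Isg15* and *Ifit1*, which had no exon event. Several differed without overlap. The mean of the 2 T7-TIA1 libraries over that of the 2 Empty libraries was 2.86 for *Irf7*, 3.56 for *Ifit3*, whose reads mostly skip the exon, 1.94 for *Oasl2*, 1.72 for *Gbp2*, 2.11 for *Gbp3*, 3.31 for *Usp18* and 1.39 for *Psmb8*. These are 7 of 11 members, against 12.3% of all genes with such reads, and *Dhx58*, *Psmb9*, *Gbp7* and *Parp14* overlapped. The mean of the 8 knockdown libraries over that of the 2 shSCR libraries was 4.42 for *Psmb9*, which lay above shSCR without overlap (9.61% of all genes with such reads), whereas *Dhx58*, *Usp18* and *Psmb8* overlapped. No test was run on these reads.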

How the results depend on the processing

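Of 162 values of the 22 calls of a member in a comparison under alternatives other than leaving out a library, 153 kept their direction and their call, 9 kept the direction alone, 8 of them with the compared groups alone, and none reversed. With the compared groups alone the count of members called fell from 5 to 0 in *Cpsf3* knockdown and from 3 to 1 in *Hnrnpul1* knockdown, a fit with fewer libraries. The replicate block gave 12 members between shSCR and NI (59.4% of all genes) and 12 in *Cpsf3* knockdown (49.8%). It gave 6 in *Hnrnpul1* knockdown (29.3%) and 2 between the shRNAs against *Cpsf3* (4.31%). In the day 12 groups alone it gave 25 in *Cpsf3* knockdown (59.2% of all genes) and 18 in *Hnrnpul1* knockdown (42.2%). There it gave 5 between the knockdowns (14.5%) and 21 between the shRNAs against *Cpsf3* (26.2%). It changed no other count by over 1.5 times, and in the overexpression dataset, where libraries share only a number (r 0.171 to 0.308 across genes), the counts with the block were 8 (46.4% of all genes) and 0 (0%). Another constant, a filter at a mean of 10, rescaling and a fit without the trend kept the counts within 1.5 times. Rescaling moved the median log2 fold change of all genes from 0.0005 to 0.131 between shSCR and NI and from 0.0128 to 0.192 between Empty and NI.

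Leaving out 1 library gave 2 to 6 members between shSCR and NI, 0 to 9 in *Cpsf3* knockdown, 0 to 2 in *Hnrnpul1* knockdown, 2 to 17 between Empty and NI, and 0 to 0 in the other 4 comparisons, where the group of the lone library was taken to vary like the others. Of 104 such values of named members 43 lost the call and none reversed. It gave 15 to 21 events between shSCR and NI (1.57 to 1.72% of all events), 4 to 12 in *Cpsf3* knockdown (0.4 to 0.768%), 3 to 9 in *Hnrnpul1* knockdown (0.335 to 0.697%), 5 to 12 between Empty and NI (0.928 to 1.41%) and 4 to 8 between T7-TIA1 and Empty (0.782 to 1%), as a gap between fewer libraries is easier to pass. A minimum PSI difference of 15 left 3 events between shSCR and NI (0.638%), 1 in *Cpsf3* knockdown (0.177%) and 1 between Empty and NI (0.342%), where no minimum gap gave 5 (0.982%) and a stricter read score 1 (0.571%). The cause of the other changes was not tested. A planned count test on reads recovered from the scaled CPM was not run. With 2 libraries a group, small differences are not detectable.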
